A study of Bos indicus with 12 samples.

Results

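The CpGs around 6 differentially methylated cytosines (DMCs) that the study places in quantitative trait loci for shear force were examined, in muscle of Nelore cattle with tough or tender beef. The members are all covered CpGs within 500 kb of the given positions, without the 6 DMCs themselves, which left 4579 of the 635469 CpGs of the series. The DMCs, called DMC11, DMC12, DMC22, DMC40, DMC41 and DMC75 after the study's list, had been chosen by their difference between the same 12 animals. Their own values are therefore given as a description, as are those of the 53 members within 1 kb of them. The other 4526 members lie farther away than a 50-base read reaches, and tests were made on them. Whether the choice of the DMCs also bears on levels that far away was not tested. DMC40 and DMC41 lie on the same stretch of chromosome 16, so the members fall into 5 loci, which are named here after the gene listed nearest to the DMC or after the chromosome. The position given for the locus on chromosome 13 is the middle of a 100 bp window, and the covered CpG of that window, DMC22 at 13:19739401, was the one set aside.

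Genomic DNA of *longissimus thoracis* muscle was measured by reduced representation bisulfite sequencing (RRBS), with 1 library for each of 6 Tough and 6 Tender animals. The animals were *Bos indicus* steers of the Nelore breed, raised and kept on feedlots and chosen from the extremes of the estimated breeding value for shear force. The Tough group had the higher shear force, the force needed to cut a cooked steak, and the Tender group the lower. The sample labels give the shear force at 7 days after slaughter, whereas the text of the study gives a later day. All samples were taken at slaughter from whole muscle, which holds fibres, fat, vessels, nerve and connective tissue, and a change in the share of cell types cannot be told apart from a change within a cell type. No treatment was given, and the groups also differ in whatever else goes with the breeding value.

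RRBS reads DNA that has been cut with an enzyme at CCGG and treated with bisulfite, which turns unmethylated cytosine into uracil and leaves methylated cytosine. It therefore covers mostly CpG islands, the CpG-rich stretches at many gene starts that are usually unmethylated, and only part of the less dense DNA, where CpGs are usually methylated. CpGs on the same DNA molecule tend to share their state over short distances, so neighbours of a CpG often carry similar levels. A quantitative trait locus is a stretch of genome whose inherited variants go with a trait, and it usually spans many genes.

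The loci hold genes of several kinds. ANKRD53, which codes for an ankyrin repeat protein, lies beyond NAGK, the kinase of N-acetylglucosamine, and TEX261 in the RefSeq gene order of another *Bos indicus* assembly. STPG4 is flanked there by TTC7A and by CALM2, a calmodulin gene, with EPCAM, an epithelial cell adhesion molecule, beyond it. NRP1, the co-receptor for class 3 semaphorins and vascular endothelial growth factor, lies between the polarity gene PARD3 and ITGB1, the beta-1 integrin subunit. On chromosome 16 the order is SYT2, a calcium sensor of synaptic vesicle release, then PPP1R12B, a regulatory subunit of myosin phosphatase, UBE2T, a ubiquitin-conjugating enzyme, and LGR6, a receptor for R-spondins. PTPN7, a tyrosine phosphatase, lies beyond LGR6. DMC75 on chromosome 23 is listed with LOC112443836, an uncharacterized locus.

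The loci differed in how many CpGs were covered and how methylated they were. Coordinates are those of ARS-UCD1.2. The SYT2-LGR6 locus (chromosome 16, 79561957 to 80815014) gave 3178 members, 254 for each 100 kb. The ANKRD53 locus (chromosome 11, 12942364 to 13942364) gave 490 members, the STPG4 locus (chromosome 11, 29040007 to 30040007) 385, the NRP1 locus (chromosome 13, 19239450 to 20239450) 290 and the chromosome 23 locus (18518120 to 19518120) 236. The median scaled coverage of a member was 24 to 31 reads in the Tough libraries and 24 to 30 in the Tender libraries. At 26 reads, counting alone gives a standard error of 9.81 percentage points for a level of 50%. Scaled coverage was up to 1.27 times the reads, so at a scaled coverage of 26 the error is larger in some animals. Over the series, the median before scaling ran from 20 reads in Tough 6 to 33 in Tough 1.

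Most members outside chromosome 16 were unmethylated. A mean over the 12 animals below 5% was found for 55.1% of the members of the ANKRD53 locus, 69.6% of the STPG4 locus, 76.9% of the NRP1 locus and 57.2% of the chromosome 23 locus, against 52.4% over the whole series. The SYT2-LGR6 locus stood apart with 33.3% below 5%. It also had the most intermediate CpGs, those with a mean from 20% to 80%, which made up 28.3% of its members, against 8.28% in the NRP1 locus and 17.8% in the series. Levels above 80% were seen at 27.2% of its members, against 7.53% in the STPG4 locus, 23.3% in the chromosome 23 locus and 20.6% in the series.

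**Figure D1:**
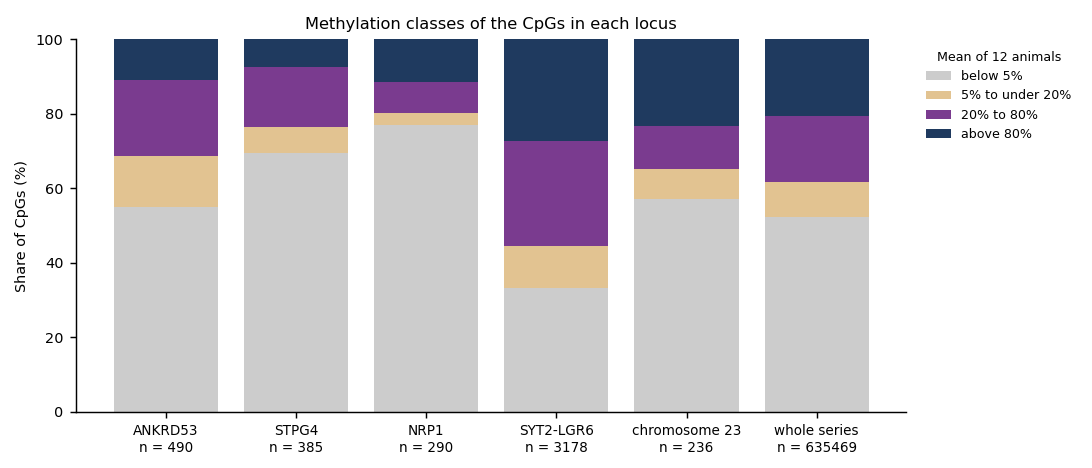
Share of CpGs (%) in 4 classes of mean methylation over the 12 animals, for the members of each locus and for all CpGs of the series. The SYT2-LGR6 locus has the smallest share below 5% (33.3%) and the NRP1 locus the largest (76.9%).

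Around the DMCs themselves, CpGs within 50 bp mostly differed in the direction of the DMC but by less. There were 22 such members, 18 of them in the direction of their DMC, and the largest difference was 19.5 percentage points. None passed 25 points, the size that the study required of a DMC. The DMCs had been chosen for passing it in these animals, so smaller differences beside them are partly given by that choice. Members within 50 bp on the same strand can lie on the same reads as the DMC, so their direction is not independent of it. The same holds for neighbours of the members named further below. Differences at a CpG are Tender minus Tough in percentage points, from the reads pooled within each group. The median of the 22 differences, counted towards the DMC, was 6.21 points. Of the 31 members from 51 bp to 1 kb away, 12 had the direction of the DMC and 19 the opposite, with a median of -0.86 points towards the DMC. None of the 53 members within 1 kb had groups that did not overlap. Over all CpGs the share was 0.0965%, so a count of 0 among so few says little.

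At DMC12 in the STPG4 locus (11:29540007, listed as intergenic), the 6 Tough animals ranged from 16.7% to 40.0% with a median of 33.0%, and the Tender animals from 64.7% to 88.9% with a median of 70.1%. The 6 members within 50 bp had mean levels of 57.3% to 83.1%, so the low level of the Tough animals at DMC12 was not seen around it. Of these, 5 were higher in Tender. The largest difference was at 11:29540025, 18 bp away, with 40.0%, 60.3% and 73.3% as lowest, median and highest of Tough and 58.8%, 68.4% and 95.7% of Tender, a difference of 19.5 points. At 11:29540010, 3 bp away and usually on the same reads, the means were 80.4% ± 9.0 (SD, n = 6) in Tough and 85.7% ± 7.24 in Tender. The next covered members, 242 and 273 bp away on the other strand, were higher in Tender by 15.2 and 3.67 points.

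At DMC11 in the ANKRD53 locus (11:13442364, listed as intergenic and in a CpG island), Tough was the higher group. Its animals ranged from 90.9% to 100% with a median of 97.7%, against 53.8% to 83.3% with a median of 74.8% in Tender. The 4 members within 50 bp were highly methylated in both groups, with means of 84.6% to 93.2%. The closest, 3 bp away at 11:13442367, had 88.5%, 98.6% and 100% in Tough and 71.4%, 80.7% and 100% in Tender, a difference of -10.7 points. The member 30 bp away differed by 0.40 points. Further out, the 3 members on the other strand 124 to 167 bp away were higher in Tender by 4.32 to 8.88 points, opposite to DMC11.

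DMC22, in an intron of NRP1, had 40.0%, 55.9% and 100% as lowest, median and highest of Tough, against 87.2%, 91.2% and 100% of Tender. The 7 members within 1 kb were methylated in both groups, and 6 of them were higher in Tender. The member 46 bp away, 13:19739355, differed by 6.13 points, with 57.1%, 78.0% and 100% in Tough and 72.5%, 83.3% and 96.7% in Tender. The largest difference was 11.3 points, at 13:19739635, 234 bp away on the other strand.

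On chromosome 16 the surroundings of the 2 DMCs differed. DMC40, in an intron of SYT2 and in the shore of a CpG island, ranged from 12.5% to 62.5% in Tough and from 55.6% to 77.4% in Tender. Its 3 neighbours within 50 bp had very unlike levels, with means of 23.4%, 53.8% and 63.0%. Only the lowest, 16:80061939, 18 bp away, differed by more than 5 points, from 17.8% ± 9.88 in Tough to 28.9% ± 14.6 in Tender. DMC41, in an intron and in a CpG island listed with UBE2T and LGR6, sat at the border between methylated and unmethylated DNA. The 3 members 423 to 452 bp before it had means from 83.7% to 98.1%, and those 103 to 184 bp after it had means from 0.31% to 16.3%.

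Close to that border, levels changed from 1 CpG to the next. DMC41 was at 55.9% ± 8.71 in Tough and 79.6% ± 9.57 in Tender. The member 2 bp away on the same strand, 16:80315016, was at 37.6% ± 14.8 and 54.9% ± 14, a difference of 16.6 points. The member 4 bp to the other side, 16:80315010, was at 17.9% ± 17 and 20.2% ± 21.2, a difference of 0.78 points with a range among the Tender animals from 0% to 55.6%. Of the 18 members from 51 bp to 1 kb around DMC41, 15 were higher in Tough, most of them at levels below 10%. The 24 covered CpGs of this stretch other than DMC41 averaged 20.1% ± 2.35 in Tough and 20.3% ± 1.51 in Tender.

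At DMC75 on chromosome 23, listed as intergenic, the Tender animals were between 97.5% and 100% and the Tough animals between 45.7% and 92.7%. Only 2 members were within 1 kb of it, both methylated and both higher in Tender. The CpG 20 bp away, 23:19018100, was at 82.1% ± 13.3 in Tough and 90.6% ± 5.79 in Tender, and the other, 12 bp away, at 88.9% ± 6.98 and 95.3% ± 5.16. None of the 6 DMCs had its opposite strand covered.

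**Figure D2:**
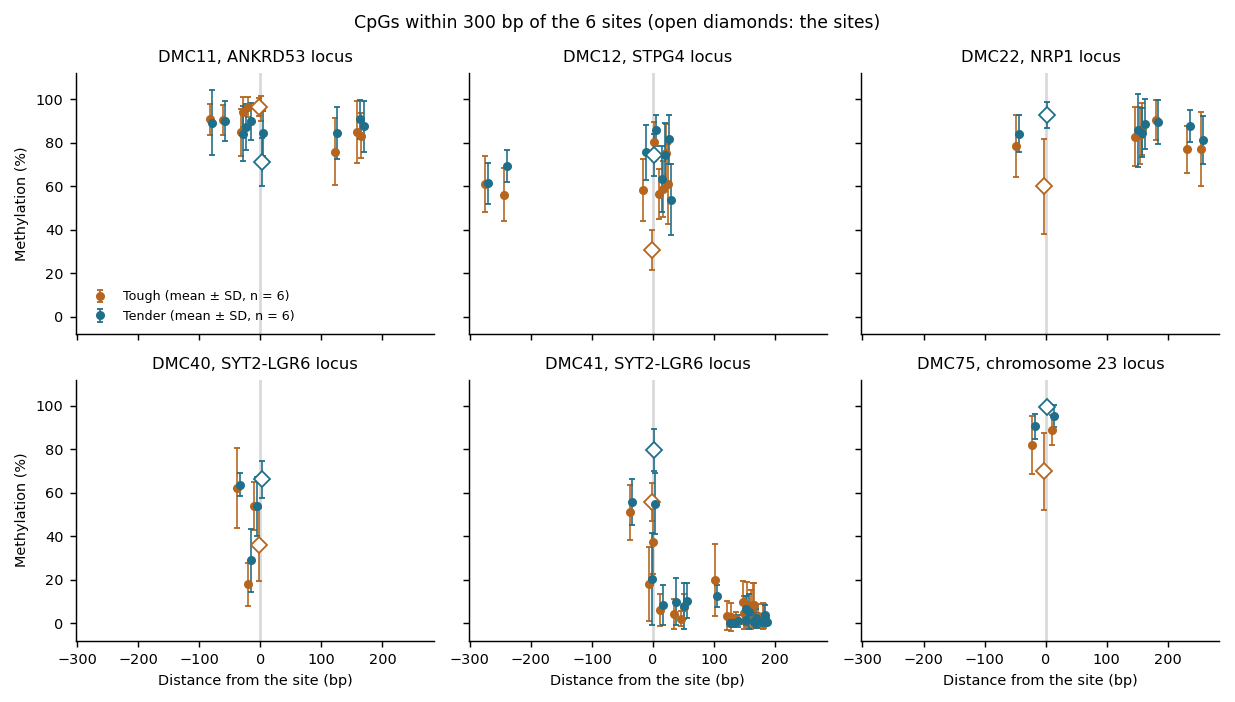
Mean methylation (%) ± SD of the 6 Tough and 6 Tender animals at each covered CpG close to the 6 DMCs, against the distance in bp. Open diamonds are the DMCs. The group means lie farthest apart at the diamonds, which had been chosen for their difference in these animals. At the CpGs around them the animals of the groups overlap, as they do at all but 0.0965% of the CpGs of the series. The largest difference was 19.5 points.

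No member was called as a DMC, that is at an adjusted p under 0.05 and a difference above 25 points in the logistic model. Over all CpGs of the series, 121 or 0.0190% were called, the 6 set aside here among them. With the F-test in place of the chi-square test the count was also 0, against 0.00142% of all CpGs. An unadjusted p under 0.05 in the chi-square test was found for 348 of the 4526 members farther than 1 kb (7.69%), against 8.29% of all CpGs. Of these, 214 were higher in Tender and 134 in Tough, against 4.79% and 3.50% of all CpGs. Without the size criterion, 5 members passed the adjusted p, against 0.135% of all CpGs. All 5 were farther than 1 kb from a DMC. Among them 4 were higher in Tender, against 0.0888% of all CpGs, and 1 in Tough, against 0.0463%. The count of DMCs was 3 without Tough 3 (16:80264437, 16:80372894 and 16:80372918) and 1 without Tough 4 or Tough 5 (11:29795684). The count of 5 became 9 without Tough 3, 3 without Tough 2, Tough 4, Tough 6 or Tender 11, and 2 without Tough 5. In the F-test alternative it was 1, at a CpG that kept the chi-square test because its overdispersion factor was 1. On reads before the authors' scaling it was 2. The shares of all CpGs with an animal left out or on reads before scaling were not counted. Nor was that of the F-test without the size criterion. Groups did not overlap at 7 members, against 0.0965% of all CpGs. They were 6 higher in Tender, against 0.0600%, and 1 higher in Tough, against 0.0365%.

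The smallest p of all members was at 16:80253981, 61.0 kb from DMC41. The Tough animals ranged from 0% to 4% with a median of 0%, and the Tender animals from 15.8% to 22.2% with a median of 17.4%. The groups did not overlap, and the spread within each was small, with an SD of 1.78 in Tough and 2.79 in Tender. The difference was 16.9 points and the adjusted p 0.000403. Its overdispersion factor was 1, so the F-test alternative kept the chi-square test here. Only the adjustment changed, to an adjusted p of 0.000749. The adjusted p was 0.00290 on the reads before scaling, and between 0.000263 and 0.00362 with any 1 animal left out. Both members within 50 bp were higher in Tender as well. They are on the same strand and can lie on the same reads, so their direction is not independent of that of 16:80253981. At 16:80253984, 3 bp away, the means were 46.4% ± 24.1 and 63.8% ± 13.9. At 16:80254015, 34 bp away, they were 7.64% ± 7.87 and 26.5% ± 12.3, a difference of 20.1 points with an adjusted p of 0.106.

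The other SYT2-LGR6 member that passed, 16:80382964, was 68.0 kb from DMC41 and nearly unmethylated in Tough. Its values were 0%, 0% and 4.76% in Tough and 6.06%, 10% and 16.7% in Tender, without overlap, a difference of 9.51 points with an adjusted p of 0.0392. The 16 members within 50 bp had group differences from -1.80 to 6.55 points, 11 of them higher in Tender. On the opposite strand of the same CpG the means were 1.71% in Tough and 4.17% in Tender. The adjusted p was 0.0656 on the reads before scaling and between 0.0142 and 0.105 with 1 animal left out. In the F-test alternative it was 0.0861, with the chi-square test kept again because the overdispersion factor was 1. In the Tough direction the smallest p was at 16:80437201, 122 kb away, with 4.17%, 15.8% and 32.1% in Tough and 0%, 3.70% and 8.33% in Tender, and an adjusted p of 0.0791.

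The SYT2-LGR6 locus held 3178 of the 4579 members, and 6 of the 7 members without overlap lay in it. Besides both members just described, these were 16:79671769, 16:80264437, 16:80341436 and 16:80543397, none of which passed the adjusted p. The first had 45.2%, 58.9% and 62.1% in Tough and 64.3%, 74.9% and 95.8% in Tender. The opposite strand of that CpG differed by 4.81 points, and both strands merged by 11.4 points with an adjusted p of 0.256. The only member of the 7 that was higher in Tough was 16:80264437, 50.6 kb from DMC41, with 15.4%, 22.6% and 51.9% against 0%, 8.01% and 13.3%. Its neighbour 41 bp away also was higher in Tough, by 10 points. At 16:80341436, 26.4 kb away, Tough had 73.9%, 86.2% and 93.3% and Tender 94.7%, 96.5% and 100%. At 16:80543397 the highest Tough animal was at 3.45% and the lowest Tender animal at 4.17%, so the gap is smaller than what 1 read is worth.

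In the ANKRD53 locus, 2 members passed the adjusted p, both higher in Tender. At 11:13693697, 251 kb from DMC11, the Tough animals had 5.56%, 21.1% and 26.7% and the Tender animals 26.5%, 38.5% and 52.2%, a difference of 19.1 points with an adjusted p of 0.0491. The highest Tough animal lay just above the lowest Tender animal. Its 3 neighbours within 50 bp had means of 2.87% to 9.70% and differences from -2.61 to 0.72 points. At 11:13510110, 67.7 kb away, 5 Tough animals were at 0% and 1 at 2.27%, and the Tender animals had 0%, 6.70% and 14.3%, with an adjusted p of 0.0397. Close to the latter, 11:13511739 had groups without overlap, with 0%, 0% and 3.70% in Tough and 3.85%, 14.1% and 35.3% in Tender, and an adjusted p of 0.0579. On the other side of it, 11:13508768 had the smallest p in the Tough direction, with all 6 Tender animals at 0% and Tough at 0%, 4.65% and 14.3%, and an adjusted p of 0.118. For the passing pair, the adjusted p with the F-test was 0.570 at 11:13693697 and 0.547 at 11:13510110. On the reads before scaling it was 0.0211 and 0.0711 in the same order. With 1 animal left out it ran from 0.0187 to 0.124 and from 0.0157 to 0.126.

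The remaining loci held 1 member that passed. In the chromosome 23 locus, 23:19224657, 207 kb from DMC75, was higher in Tough, with 83.3%, 98.3% and 100% against 71.4%, 79.7% and 87.5% in Tender. The difference was -16.4 points and the adjusted p 0.0400, or 0.548 with the F-test, 0.0735 on the reads before scaling and between 0.00218 and 0.103 with 1 animal left out. The member 24 bp away differed by 0 points. In the STPG4 locus the smallest p in the Tender direction was at 11:29795684, 256 kb from DMC12, where Tough had 50.0%, 78.7% and 100% and Tender 94.1%, 100% and 100%, with an adjusted p of 0.131. Its only neighbour within 50 bp, 11:29795710, had the opposite direction, with a difference of -12.6 points. In the NRP1 locus it was at 13:19971758, 232 kb from DMC22, with 0%, 0% and 2.13% in Tough and 2.00%, 9.40% and 13.3% in Tender, and an adjusted p of 0.0934. The smallest p in the Tough direction there, 13:19971567, had all Tender animals at 0% and 3 Tough animals above it. The opposite strand of that CpG was 0% in every Tough animal and 5.24% on average in Tender, and with both strands merged the difference turned from -5.67 to 0.23 points.

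**Figure D3:**
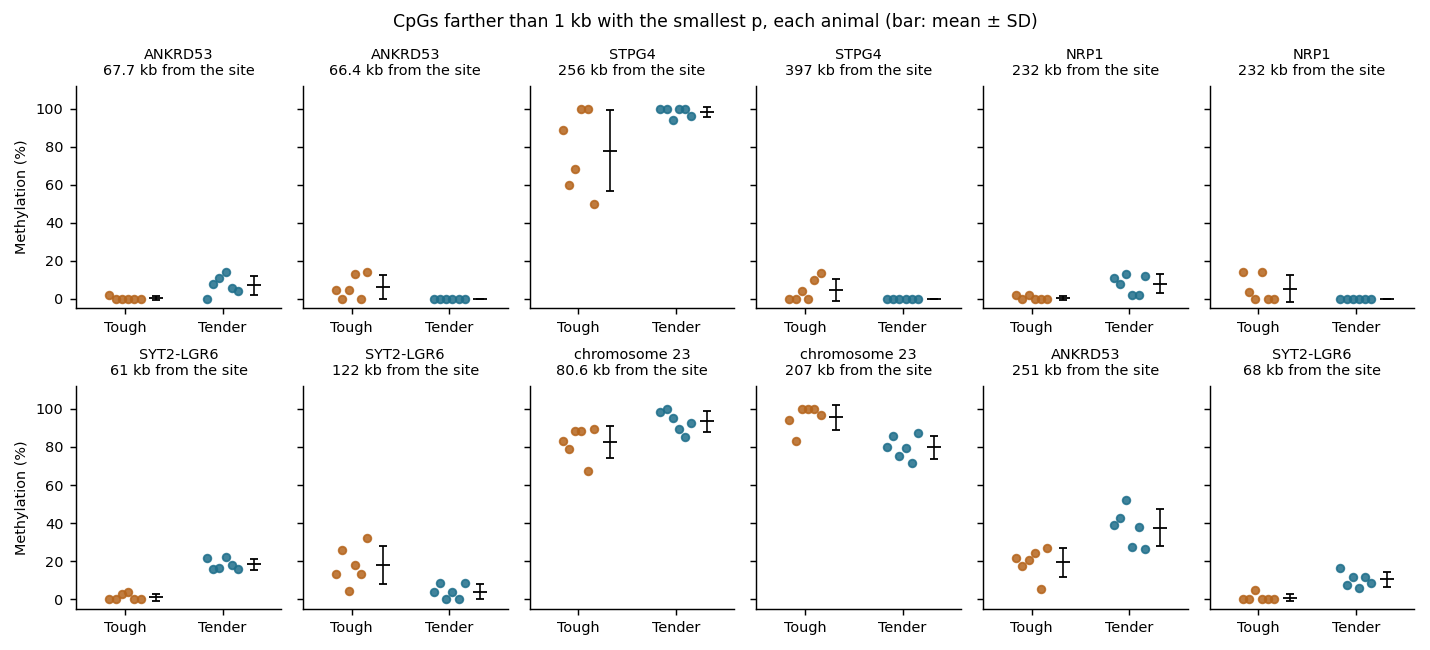
Methylation (%) of each animal at the 12 members farther than 1 kb that had the smallest p in each direction in a locus or an adjusted p under 0.05, with the mean ± SD of each group of 6. At the SYT2-LGR6 CpG 61.0 kb from DMC41 the Tough animals lie at or below 4% and the Tender animals at or above 15.8%.

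A difference above 25 points was found at 6 members, none of which passed the adjusted p. Among all CpGs, 0.225% had such a difference, whatever the p. The largest were at a pair of NRP1 members 34 bp apart, 13:20041365 and 13:20041399, 302 kb from DMC22 and singled out after their values had been seen. At the first, Tough had 18.2%, 52.6% and 100% and Tender 0%, 2.56% and 38.5%, a difference of -45.8 points. Both groups were widely spread and overlapped, and the overdispersion factor of 9.51 left an adjusted p of 0.268. The second differed by -45.3 points with an adjusted p of 0.240. The other 4 were in the SYT2-LGR6 locus, 3 of them higher in Tender, at 16:79846983, 16:80655351 and 16:80712155, and 1 in Tough, at 16:79905760. Without the correction for overdispersion all 6 would have been called.

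The median size of the difference was 6.21 points up to 50 bp and 3.48 points from 51 bp to 1 kb. It was 2.93 points from 1 to 10 kb, 1.87 points from 10 to 100 kb and 1.94 points from 100 to 500 kb, against 1.52 points over the series. A CpG near 0% cannot differ by much, and the mean level also fell from 59.5% in the first class to 34.2% in the last. For intermediate CpGs alone the medians from 1 kb on were 5.79, 5.87 and 5.55 points, against 5.59 over the series. At the edges, the outermost members, 431 to 499.7 kb from the given positions, differed by -22.1 to 4.25 points, and the first CpGs beyond the limit, at 501 to 574 kb, by -27.5 to 4.99 points.

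**Figure D4:**
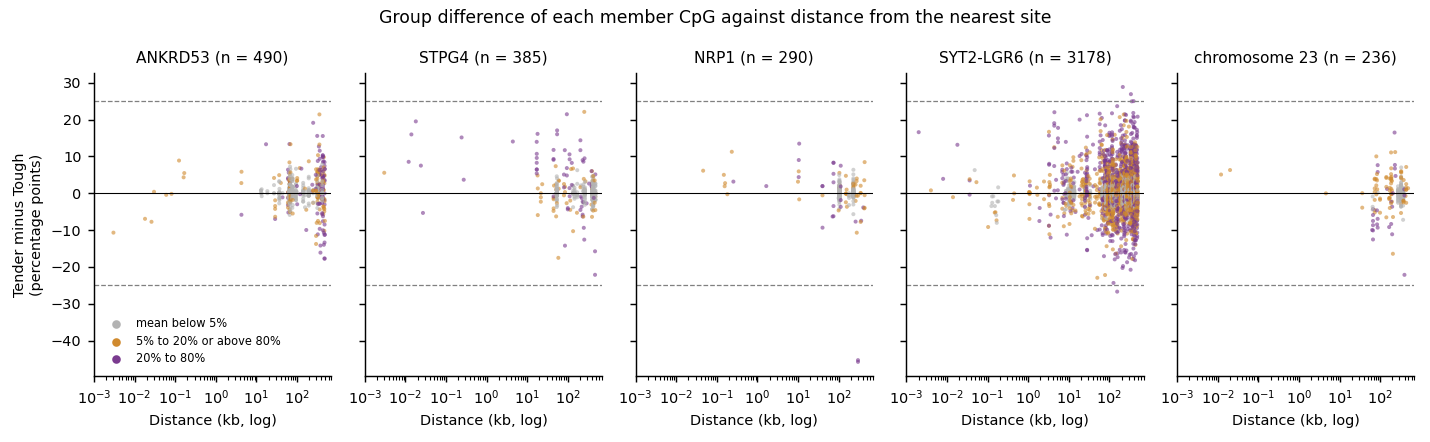
Difference between the groups (Tender minus Tough, percentage points) of each member CpG against its distance from the nearest DMC (kb, log scale), with 1 panel for each locus and colours for the mean level. Dashed lines mark 25 points. The NRP1 pair below -45 points and 4 CpGs of the SYT2-LGR6 locus lie beyond them.

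No window of 100 bp was called as a differentially methylated region (DMR) among the 1314 windows that hold members and none of the DMCs, against 0.0217% of all windows. The F-test gave 0 as well. Of these windows, 1302 had all members farther than 1 kb from a DMC. An unadjusted p under 0.05 with the chi-square test was found for 99 of the 1302, against 8.76% of all windows. The count of DMRs was 1 without Tough 3, without Tough 4 or without Tough 5, each time a window with a CpG named above. The share of all windows with an animal left out was not counted. Among windows of at least 3 CpGs, the smallest p was in the SYT2-LGR6 locus at 16:79671701-79671800, 390 kb before DMC40. Its 11 CpGs had means between 43.6% and 69.5%, and all 11 were higher in Tender, by 4.59 to 21.8 points. The window was picked for its p, so a common direction is partly given by that choice. Its CpGs on the same strand can also share reads. Per animal the window had 45.3%, 48.8% and 55.9% in Tough and 54.0%, 60.1% and 74.1% in Tender, a difference of 11.2 points with an adjusted p of 0.0937. The groups overlapped, and the adjusted p was 0.657 with the F-test. The whole stretch of 26 covered CpGs from 79671725 to 79672182 averaged 52.3% ± 4.37 in Tough and 57.4% ± 4.69 in Tender.

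In the other loci the windows with the smallest p were unmethylated ones. The largest difference among those 4 was 1.28 points in size, in the NRP1 locus at 13:19920801-19920900, where all Tender animals were at 0%. On chromosome 23, 8 of the 9 CpGs of 23:18689301-18689400 were higher in Tender, with group means of 0.33% ± 0.38 and 1.30% ± 0.94. That window too was picked for its p, and its CpGs can share reads. The adjusted p of these 4 windows was between 0.202 and 0.499.

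Dense stretches, with at least 20 members and gaps of up to 500 bp, numbered 52 and held 2199 members. They were mostly unmethylated, 35 with a mean below 5%, and these differed by at most 1.57 points between the groups. Of the stretches at a higher level, 1 was in the ANKRD53 locus and the rest in the SYT2-LGR6 locus, and their largest difference was 6.26 points, at 16:80578748-80579659 with 26.4% ± 4.12 in Tough and 32.6% ± 8.70 in Tender. The stretch with the most CpGs was in the NRP1 locus, where 143 CpGs from 13:19632765 to 13:19635438 averaged 0.84% ± 0.65 in Tough and 1.21% ± 0.53 in Tender.

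Gene starts were mostly unmethylated in both groups. The study lists 15 gene starts within these loci, and 12 of them had at least 3 members within 1 kb. The mean was below 5% at 10 of the 12, and there the groups differed by at most 0.87 points. The NRP1 start, with 64 CpGs between 13:19634400 and 13:19635438, averaged 0.98% ± 0.82 in Tough and 1.35% ± 0.72 in Tender. The LGR6 start, with 50 CpGs between 16:80398118 and 16:80399167, averaged 3.70% ± 1.11 and 3.58% ± 0.77, with single CpGs up to 32.4%. Both starts above 5% were on chromosome 16. ENSBTAG00000046350 had 3 CpGs at 19.6% ± 12.3 in Tough and 19.4% ± 4.23 in Tender, and ENSBTAG00000003016 had 7 CpGs at 57.9% ± 5.08 and 54.2% ± 5.24.

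The mean over a whole locus asks whether methylation around the DMCs was shifted as a block. The unweighted mean over members farther than 1 kb was compared between the groups with an exact two-sided permutation test, in which 924 arrangements of 6 against 6 animals give 0.00216 as the smallest p. None of the 10 tests, over all and over intermediate CpGs of each locus, passed after Benjamini-Hochberg adjustment. The groups overlapped in all 10.

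In the SYT2-LGR6 locus the 3151 members averaged 40.0%, 41.1% and 41.7% as lowest, median and highest of Tough and 41.2%, 41.6% and 42.8% of Tender. The difference was 0.83 points with an exact p of 0.0346, or 0.152 after adjustment. Its 895 intermediate members had 49.5%, 50.6% and 52.4% in Tough and 51.2%, 52.4% and 55.9% in Tender, a difference of 2.06 points with an exact p of 0.0281, or 0.152 after adjustment. CpGs outside the loci were also higher in Tender, by 0.40 points over all and 1.25 points over intermediate CpGs. With reads pooled over the CpGs, so that deeply covered CpGs weigh more, the difference over all members was 2.15 points with an exact p of 0.00649, or 0.0577 after adjustment. After subtraction of the animal's mean outside the loci, all members differed by 0.43 points with an exact p of 0.0758, and the intermediate members by 0.81 points with an exact p of 0.128. On members with at least 20 reads in every animal, both differences passed. The 737 such members averaged 42.9%, 43.9% and 44.4% in Tough and 44.5%, 44.9% and 45.1% in Tender, without overlap, with an adjusted exact p of 0.0108. The 204 intermediate ones differed by 1.68 points with the same adjusted p, and outside the loci such CpGs differed by 0.37 and 0.99 points. With the animal's mean outside the loci subtracted as well, the adjusted exact p was 0.0216 over all and 0.289 over intermediate members.

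In the ANKRD53 locus the 481 members averaged 19.8%, 20.4% and 20.9% in Tough and 19.9%, 21.1% and 21.9% in Tender. The difference of 0.74 points had an exact p of 0.0455, or 0.152 after adjustment, and became 0.97 points with an adjusted exact p of 0.0433 without Tender 11. After subtraction of the animal's mean outside the loci it was 0.34 points with an exact p of 0.169. Its 99 intermediate members differed by 1.22 points, by -0.034 points after that subtraction, by 0.74 points without Tender 8 and by 0.78 points without Tender 12. In the STPG4 locus the 55 intermediate members had 43.4%, 47.8% and 53.9% in Tough and 49.8%, 51.8% and 56.7% in Tender, a difference of 3.83 points with an exact p of 0.0714. Over all 377 members it was 0.63 points, or 0.23 points after subtraction of the animal's mean outside the loci and 0.38 points without Tough 5. Within 100 kb of DMC12, 24 intermediate members differed by 7.60 points with an exact p of 0.0346, or 0.137 after adjustment.

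In the NRP1 and chromosome 23 loci the mean over intermediate members was higher in Tough, but no test passed and the sign depended on the setting. In the NRP1 locus the 23 intermediate members had 54.6%, 60.6% and 62.6% in Tough and 50.8%, 55.7% and 63.9% in Tender, a difference of -3.27 points with an exact p of 0.177. Without the pair near 13:20041365 it was 0.83 points, and without Tender 8 it was -2.08 points. Over all 283 members of the locus the difference was 0.03 points. In the chromosome 23 locus the 27 intermediate members had 46.6%, 47.7% and 51.7% in Tough and 37.2%, 45.6% and 49.6% in Tender, a difference of -3.15 points with an exact p of 0.108, and the 234 members together -0.12 points. After subtraction of the animal's mean outside the loci, the intermediate difference was -4.40 points with an exact p of 0.00649, or 0.0649 after adjustment. It was -1.67 points with pooled reads, with an exact p of 0.498, and 0.90 points on the 11 members with at least 20 reads in every animal. Without Tender 9, which was the lowest animal at 37.2%, it was -1.57 points.

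**Figure D5:**
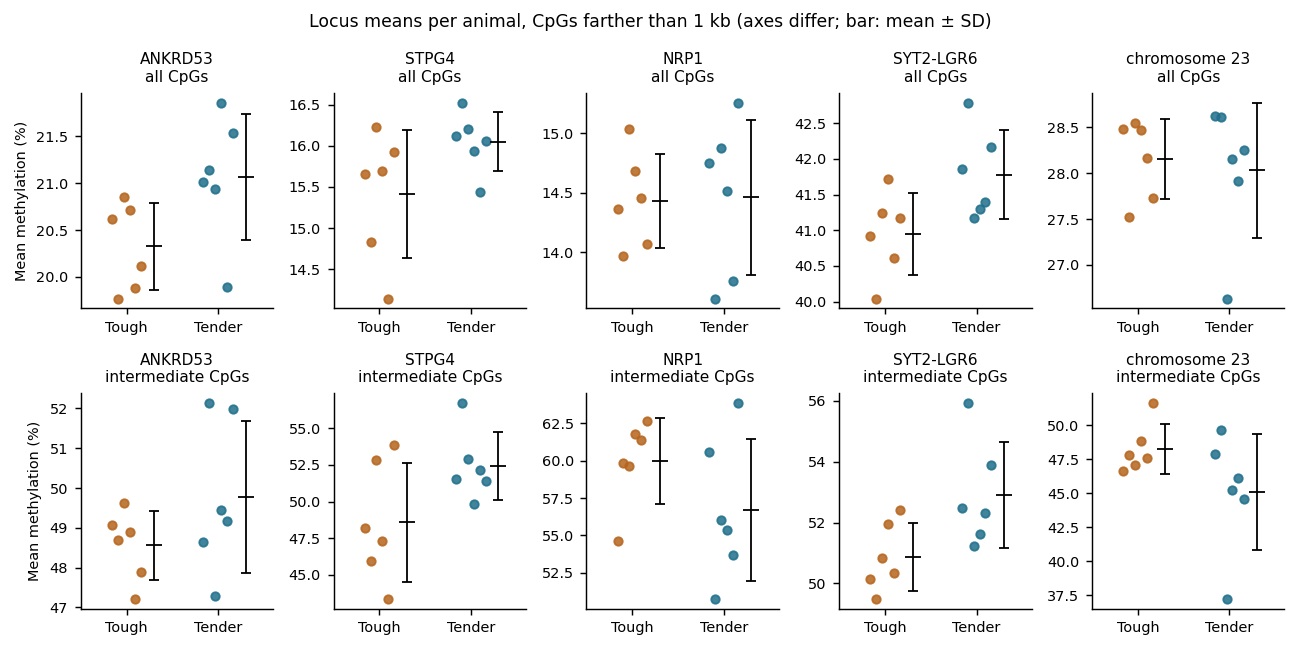
Mean methylation (%) of each animal over the members farther than 1 kb from the DMC, for all CpGs (top) and intermediate CpGs (bottom) of each locus, with the mean ± SD of each group of 6. Axes differ between panels and do not start at 0. The groups overlap in all 10 panels.

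The study's supplement gives the unmethylated spike-in control of each library as a value. By a cutoff set here, these values were split into a higher and a lower class of bisulfite conversion. The higher class held 3 Tough and 2 Tender libraries, and the lower class 3 Tough and 4 Tender libraries. Compared within these classes, the SYT2-LGR6 intermediate difference was 2.18 points with an exact p of 0.0343, the ANKRD53 difference over all members 0.60 points with an exact p of 0.0229, and no locus passed the adjustment.

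Both strands of the same CpG were covered in 617 cases among the members. The median gap between the levels of the strands was 0.92 points and the largest 90.8 points. In the 94 cases where both strands were intermediate, the level gap was 4.82 points, whereas the group difference had the same sign on both strands in 48 of 94. The median gap between the group differences of the strands was 9.04 points.

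Some members had animals at both ends of the range. At 16 members, 14 in the SYT2-LGR6 locus and 2 in the NRP1 locus, an animal was at or below 5% and another at or above 95%, against 0.360% of all CpGs. At 7 of those on chromosome 16, spread over 512 kb from 79828205 to 80340186, Tough 1, Tender 9 and Tender 10 were all at or below 15%. At 16:79901615 these 3 animals were at 0% and the other 9 between 28.6% and 100%, and at 16:79917324 they were at or below 11.8% and the others between 66.7% and 100%. They were not set apart at all of the 7. In all, 8 animals were at or below 5% at 16:79828205 and at 16:80236459. Tough 4 was also at 0% at 16:80127289 and 16:80158928. At 16:79680428, another of the 14, Tough 1, Tender 9 and Tender 10 were all at 100%, with Tough 4 at 96%. At the remaining members of the 14 those 3 animals did not share a level. These CpGs and animals were singled out after their values had been seen. The largest group difference among the 14 on chromosome 16 was 22.2 points in size. At the NRP1 pair near 13:20041365 the low animals were Tender 7, Tender 8 and Tender 9 and the high animal Tough 6. Both strands were covered at 16:80600374 and 16:80600375, and on both Tender 9 was at 0% and Tough 2, Tender 7 and Tender 12 were at or above 95%. The DNA sequence of the animals at these CpGs was not analysed here, so its part in these levels was not tested.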

How the data were processed

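RRBS libraries of *longissimus thoracis* muscle from 6 Tough and 6 Tender animals had been sequenced with single 50-base reads. Per the labels, the tools were FastQC 0.10.1, Trim Galore 0.4.1, Bismark 0.23.0 (alignment, to the build ARS-UCD1.2) and methylKit 1.8.1. Cytosines with at least 10 reads in all 12 animals were kept by the authors, who left out the most deeply covered and normalized the coverage. The deposited values for coverage, methylated and unmethylated reads are a score, since whole reads had been scaled for each animal by a number from 1 to 1.27 and rounded. The tests had been planned for read counts and were kept, with recovered whole reads as an alternative. The parts did not add up to the coverage, by 1 read, in 0.562% of values. Scaled coverage summed to 18399401 to 23470740 in Tough and 18624166 to 22734125 in Tender libraries.

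Percent methylation is the methylated part of both read classes. All 635469 CpGs were tested as methylKit does, by logistic regression with an overdispersion factor of at least 1, a chi-square test and Benjamini-Hochberg adjustment over all CpGs, using numpy 2.4.6, scipy 1.17.1 and pandas 2.3.3 under Python 3.11.15. In the F-test alternative, F was used where that factor was above 1. A DMC needed an adjusted p under 0.05 and a difference above 25 points, and windows of 100 bp were treated alike. Locus means were compared with exact permutation tests adjusted over 10 tests. The functions were tested on simulated data. Intervals from reads cover counting error only.

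The members, gene names and rules were chosen with earlier results of these data known. CpGs were named if close to a DMC or, farther than 1 kb, if they had the smallest p of a locus in either direction. Named besides, once values were known, were those with an adjusted p under 0.05, without overlap or with a difference above 25 points. Windows were named by the smallest p among those with at least 3 CpGs. Promoters as a whole were not tested, as no annotation of the build was used here, and NRP1 and LGR6 were placed by starts that the study lists. Gene order came from RefSeq of NIAB-ARS_B.indTharparkar_mat_pri_1.0. No sequence is printed, since no genome of the build was used here. Alternatives changed the test, overdispersion, coverage, scaling, strands, criteria, distance, weighting, genome level, extreme CpGs, conversion class and animals.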

Additional observations from a re-analysis of the deposited data

Results flagged for a closer look

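Among 120 groups of 6 values, 9 had an animal set apart from the others by more than Dixon's critical value for 6 samples allows. Chance alone passes it in about 1 of 20 groups of independent, normally distributed values. Percentages close to 0% or 100% need not follow that rate. In the mean over intermediate NRP1 members, Tough 1 was at 54.6%, with the next animal at 59.7%. In the mean over all chromosome 23 members, Tender 9 was at 26.6%, with the next at 27.9%, and without it the difference was 0.16 in place of -0.12 points. At 23:19018100, next to DMC75, Tough 6 was at 56.0% and the others from 84.8% to 94.4%. At 23:19224657, Tough 2 was at 83.3% and the others from 93.9% to 100%. At 16:79671769, Tough 6 was at 45.2% and the others from 57.1% to 62.1%. In the other 4 cases all Tough animals except 1 were at 0%, so any value of that animal above 0% would have been set apart. These were Tough 1 at 2.27% at 11:13510110, Tough 3 at 4.76% at 16:80382964, Tough 3 at 3.70% at 11:13511739 and Tough 1 at 3.45% at 16:80543397.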

How the results depend on the processing

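No paired analysis was possible because the replicate numbers of the labels are not shared between the groups. The planned promoter tests were not run. Without the correction for overdispersion 6 members and 1 window were called, and with a difference above 10 points 3 members, against 0 for both otherwise. The 5 members that passed the adjusted p became 1 with the F-test, 188 without the correction, 2 at 20 reads or more in every animal, 2 on reads before scaling, 1 at an adjusted p under 0.01 and 3 within 100 kb. With 1 animal left out, the counts of DMCs, of members passing the adjusted p and of DMRs ran from 0 to 3, from 2 to 9 and from 0 to 1. The shares of all CpGs and windows under these changes were not counted. Whether the changes are particular to the members was therefore not tested. Of 90 values of the locus differences under other settings, 76 kept direction and side of the threshold. At 20 reads or more the SYT2-LGR6 differences of 1.05 over all and 1.68 over intermediate members passed, and the former still did, at 0.68 points, with the animal's mean outside the loci subtracted, a setting added after the data had been seen. Signs turned in the NRP1, chromosome 23 and ANKRD53 loci. The NRP1 mean difference was -0.44 with pooled reads, -0.37 after that subtraction and -0.10 within conversion classes, and its intermediate difference 0.20 at 20 reads or more, 1.36 within 100 kb and 0.83 without extreme CpGs. The chromosome 23 mean difference was 0.66 with pooled reads, 0.50 at 20 reads or more and 0.13 with the subtraction as well, and its intermediate difference 0.90 at 20 reads or more. The ANKRD53 intermediate difference was -0.034 after the subtraction. The merged strands of 13:19971567 gave 0.23. With 1 animal left out, the mean differences ran from 0.58 to 0.97 in the ANKRD53 locus, from -0.13 to 0.20 in the NRP1 locus and from -0.25 to 0.16 in the chromosome 23 locus. The cause was not tested. At 10 reads, the lowest coverage kept, counting alone gives a standard error of 15.8 points for 1 animal at a level of 50%.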
